A study of Mus musculus with 847 samples.

Results

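The genes described here encode the proteasome. Members were the gene symbols of the count table that begin with Psma, Psmb, Psmc, Psmd, Psme, Psmf or Psmg and go on with a number, without Psmb8, Psmb9 and Psmb10. Of the 21076 genes in the table, 50 had symbols that start in this way and 45 were members. The 5 others were the 3 immunoproteasome subunits and 2 symbols with further letters, Psme2b and Psmc3ip. The members comprised 7 genes of the alpha ring, 7 of the beta ring, 6 ATPases, 11 further subunits of the regulatory particle, 7 assembly chaperones, 4 activators, the inhibitor Psmf1, and the tissue-specific forms Psma8 (testis) and Psmb11 (thymus). The 31 genes of the alpha ring, the beta ring, the ATPase ring and the other regulatory subunits are called the core members below.

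The proteasome is the barrel-shaped protease that degrades most ubiquitin-tagged proteins in the cytoplasm and nucleus. Stacked alpha and beta rings form the core particle, in which 3 beta subunits per ring (Psmb5, Psmb6 and Psmb7) cut peptide bonds. The regulatory particle recognises ubiquitin chains, removes them, and unfolds and threads the substrate with its ATPase ring. Alternative caps (the Psme1 and Psme2 ring, the Psme3 ring and Psme4) open the barrel without ATP, and interferons raise Psme1, Psme2 and the immunoproteasome subunits. In neurons the complex takes part in protein turnover at synapses, and the loss of proteasome function with age has been a long-standing subject of brain research.

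RNA sequencing had been done on 15 brain regions dissected from 59 mice of the strain C57BL/6JN, 25 females and 34 males, with 1 library per mouse and region and 51 to 59 libraries per region. There were 5 females and 5 males at each of 3, 12, 15 and 18 months, 5 females and 6 males at 21 months, 5 males at 26 months and 3 males at 28 months. All animals carried the same inbred background, and no treatment or genotype was named. Groups of 1 region, sex and age held from 2 to 6 libraries, and ages over 21 months were represented by males alone. The design of regions by ages asks where and when the messages of the members changed over life.

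Totals ran from 481444 to 26756735 reads per library with a median of 6716032. Levels are given as counts per 1000000 reads (CPM) with TMM factors, and the members were tested in 652 pairs of member and region, 43 of the 45 in every region. A total of 13 libraries stood apart, 10 of them with under 1000000 reads. In the entorhinal cortex, the libraries of mice 7, 15 and 23 (a female of 12 months, a male of 12 months and a male of 18 months) had a mean log2 level of the core members 0.507, 0.518 and 0.551 above the all-region mean, against -0.188 to 0.0753 in the other 48. Their Psme1 levels were 80.5, 81.2 and 91.3 CPM, against 34.6 to 69.2 CPM. Most regional marker genes were highest in the region of their name. The corpus callosum libraries also held Drd1 at a median of 108 CPM and Drd2 at 349 CPM, genes of the caudate putamen, where they stood at 130.5 and 574.1 CPM. Mog and Mag, fixed to check the corpus callosum, were highest in the pons and medulla. Dlx2 and Dcx, fixed to check the subventricular zone, stood there at 27.9 and 35.75 CPM, against 80.13 and 177 CPM in the olfactory bulb. Wfs1, fixed to check the hippocampus, was highest in the caudate putamen. Because whole tissue was sequenced, fewer cells of a type and less RNA per cell cannot be told apart. The libraries were unstranded per the labels, and exons of Psma4, Psmb7, Psmc3, Psmd1, Psmd13 and Psme1 overlap a gene on the other strand in GRCm38. The overlap took from 0.634% of the exon length in Psme1 to 11.8% in Psmb7, and Psme2 has a near-identical copy in Psme2b, so values of these 7 genes carry that uncertainty.

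The promoter windows below belong to the members on which the results on age and region turn. Psme1 and Psme2 are neighbours on chromosome 14 that rose with age. Of the catalytic subunits, Psmb5 was called falling in 2 regions and Psmb6 rising in 1. The level of Psme4 was highest in the olfactory bulb and lowest in the pons, an order opposite to that of the core members. Each window runs 5′ to 3′ on the gene's strand from 250 bases before to 50 bases after the RefSeq start (GRCm38.p6). Capitals mark matches, on either strand, to the antioxidant response element core TGACNNNGC (a kind of site bound by Nfe2l1, the regulator that induces proteasome genes), to the CCAAT box, to the interferon-type element (GAAA, any 2 bases and GAAA again), or to the heat shock element TTCNNNGAA.
Psme1, chr14:55578244-55578543, plus strand: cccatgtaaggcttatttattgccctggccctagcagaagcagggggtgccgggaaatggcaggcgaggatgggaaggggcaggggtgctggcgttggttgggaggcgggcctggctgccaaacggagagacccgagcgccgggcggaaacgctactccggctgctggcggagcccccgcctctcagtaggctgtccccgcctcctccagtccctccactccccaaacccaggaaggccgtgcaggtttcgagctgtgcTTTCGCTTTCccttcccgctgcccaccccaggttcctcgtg
Psme2, chr14:55591052-55591351, minus strand: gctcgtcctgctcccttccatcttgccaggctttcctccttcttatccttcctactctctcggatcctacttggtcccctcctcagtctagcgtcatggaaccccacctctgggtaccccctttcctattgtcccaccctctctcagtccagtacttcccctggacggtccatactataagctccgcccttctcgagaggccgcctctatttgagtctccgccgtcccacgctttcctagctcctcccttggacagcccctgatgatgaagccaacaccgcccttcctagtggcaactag
Psmb5, chr14:54617946-54618245, minus strand: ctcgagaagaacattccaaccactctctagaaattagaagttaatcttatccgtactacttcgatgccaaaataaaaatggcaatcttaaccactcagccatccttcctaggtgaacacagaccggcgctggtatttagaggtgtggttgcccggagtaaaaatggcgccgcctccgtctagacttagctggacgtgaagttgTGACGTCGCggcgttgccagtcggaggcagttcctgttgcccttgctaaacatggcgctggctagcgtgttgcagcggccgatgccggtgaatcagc
Psmb6, chr11:70525107-70525406, plus strand: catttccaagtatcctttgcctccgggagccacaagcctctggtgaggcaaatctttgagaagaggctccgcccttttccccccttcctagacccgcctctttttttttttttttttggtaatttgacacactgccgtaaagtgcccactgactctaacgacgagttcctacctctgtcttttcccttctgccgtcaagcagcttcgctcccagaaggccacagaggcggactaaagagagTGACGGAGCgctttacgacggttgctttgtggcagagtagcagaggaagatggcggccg
Psme4, chr11:30771525-30771824, plus strand: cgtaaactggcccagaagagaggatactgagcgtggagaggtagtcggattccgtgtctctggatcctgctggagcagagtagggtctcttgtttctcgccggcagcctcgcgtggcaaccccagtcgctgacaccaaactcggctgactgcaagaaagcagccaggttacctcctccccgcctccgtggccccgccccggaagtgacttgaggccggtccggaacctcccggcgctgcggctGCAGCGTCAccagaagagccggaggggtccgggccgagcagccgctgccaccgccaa
The window of Psme1 held the interferon-type letters 9 bases after the start, and that of Psme2 held none of the 4 motifs. The antioxidant core stood 47 bases before the start of Psmb5, 9 before that of Psmb6 and 7 before that of Psme4. Psmb5 was called falling with age in 2 regions and Psmb6 rising in 1, and the difference between them was not tested. Windows were found for 37 of the 45 members. The antioxidant core lay in 6 of the 37 (16.2%) and in 12.5% of 27025 windows of all symbols, and CCAAT lay in 13 (35.1%) against 37.9%. The interferon-type element lay in 5 (13.5%: Psme1, Psmb3, Psmd4, Psmd9 and Psmg4) against 3.49%, and the heat shock element in 2 (5.41%) against 8.47%. No match of one motif overlapped a match of another in the members' windows. Apart from Psme1, none of the 5 with the interferon-type letters was called rising by its slope over age in any region.

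The members differed widely in level. Per kilobase of exon, and averaged over the 15 regions, the ATPase Psmc5 stood highest at 200 CPM per kilobase, followed by the catalytic subunit Psmb5 at 136 and the alpha subunit Psma6 at 114. The lowest core member was Psmb7 at 22.6 CPM per kilobase. The chaperone Psmg3, which helps build the alpha ring, stood at 4.34, and the nuclear cap Psme4 at 3.18. The tissue forms were scarcely detected: Psma8 stood at 0.277 and Psmb11 at 0.0485 CPM per kilobase, with no read for Psmb11 in 480 libraries and none for Psma8 in 87.

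**Figure D1:**
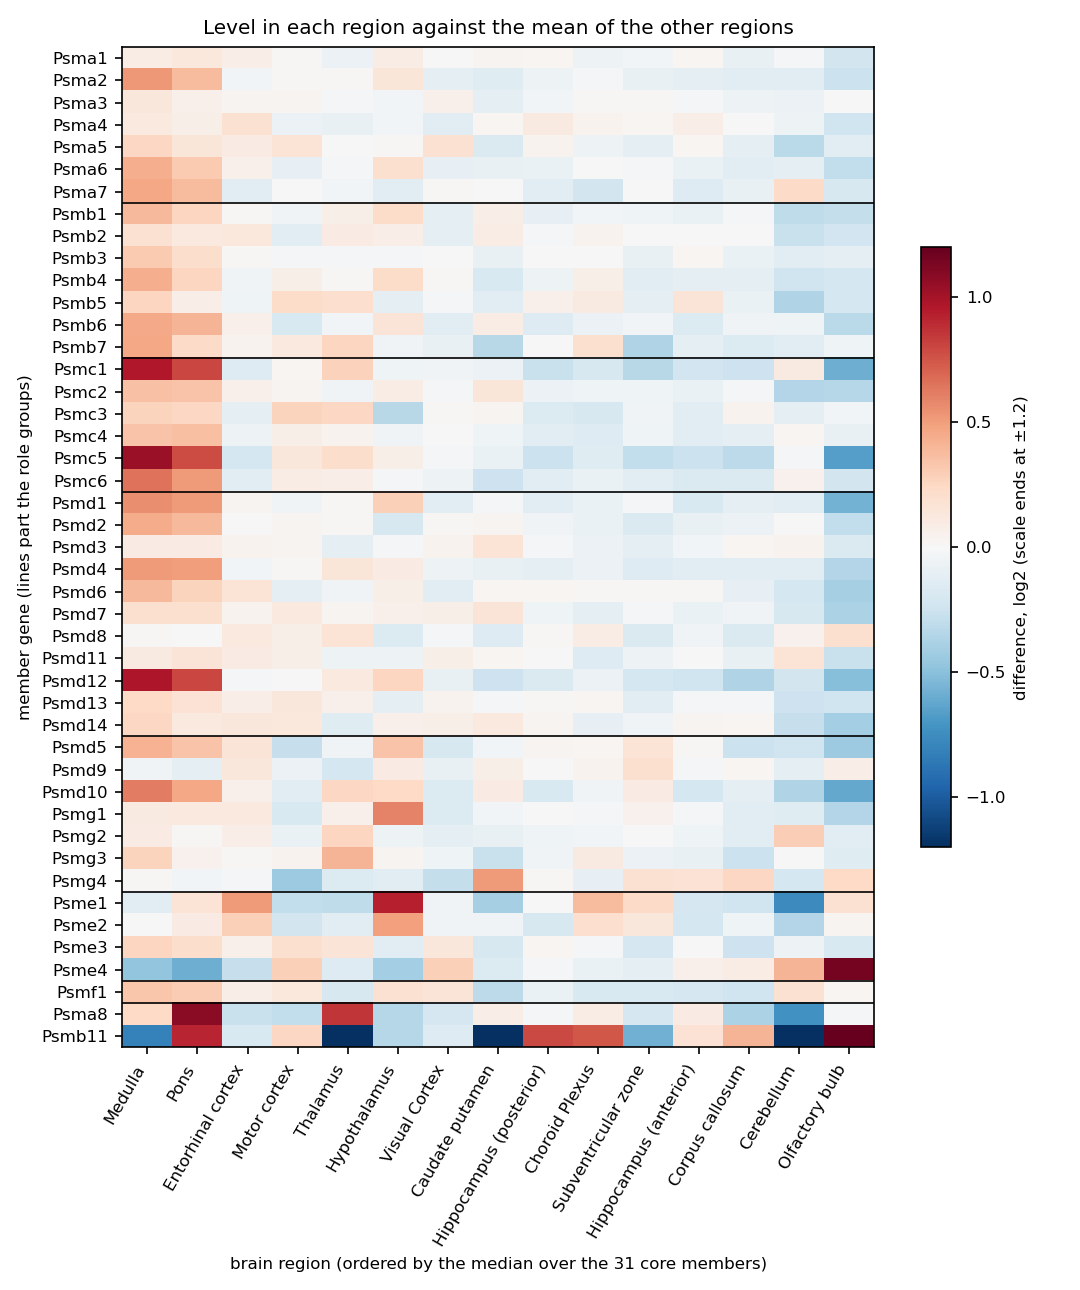
Difference in level of each member (rows, parted by role) between a region (columns) and the mean of the other 14 regions, in log2 units from the joint fit of all libraries, with the colour scale ending at ±1.2. Medulla and pons are above the other regions in all 31 core members, and the olfactory bulb is below them in all but 1.

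Core members were highest in the medulla and pons. In the medulla all 31 core members lay above the mean of the other 14 regions, with a median difference of 0.35 on the log2 scale, and in the pons all 31 lay above it by a median of 0.26. In the olfactory bulb 1 of the 31 lay above it, the lid subunit Psmd8 (0.19), and the median was -0.24. The medians over all 15069 genes were -0.04, -0.01 and -0.02. By role, the ATPase ring had the greatest median difference in the medulla, 0.50, against 0.25 for the alpha ring, 0.39 for the beta ring and 0.25 for the other regulatory subunits. Summed neuron markers (7 genes) had medians of 10280 CPM in the medulla and 9156 CPM in the pons, against 4254 to 11290 CPM elsewhere, and summed oligodendrocyte markers (6 genes) had medians of 23950 and 24970 CPM, against 1494 to 21640 CPM. The part of these cell types in the levels was not tested.

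A level was called different at an adjusted p under 0.05 (edgeR's quasi-likelihood test, Benjamini-Hochberg) together with a difference of at least 0.5 on the log2 scale. Over all genes and regions 14.1% of pairs were called higher and 13.9% lower. In the medulla 8 of 45 members were called higher (16.8% of all genes) and 1 lower (22.9%); in the pons 8 were higher (15.8%) and 1 lower (21.3%); and in the olfactory bulb 2 were higher (19.3%) and 5 lower (17.0%). These shares lie near or below those of all genes, so the medulla and pons differed from the other regions in the even direction of the core rather than in the number of large differences. The member lower in the medulla was Psmb11, and those higher in the pons took in Psmb11 and Psma8. Psmb11 was also 1 of the 2 higher in the olfactory bulb. Psmb11 and Psma8 had medians of 0 and 4 reads per library, so their calls rest on few reads. In the cerebellum 8 of the 31 core members lay above the other regions, with a median of -0.12. Psmd1 (the large scaffold of the regulatory base), Psmd4 (a ubiquitin receptor), Psmd12 (a lid subunit) and the ATPases Psmc1, Psmc5 and Psmc6 were called higher in both medulla and pons. Psmd12 differed by 0.97 in the medulla and 0.80 in the pons. Of the alpha ring only Psma2 was called, in the medulla (0.52), and no member of the beta ring was called in any region.

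Psmc5, the member with the highest level, ran from 411 to 690 CPM in the medulla with a median of 522 (mean 524 ± 58.6, SD, n = 58) and from 155 to 198 CPM in the olfactory bulb with a median of 175 (mean 175 ± 8.84, n = 58). Every medulla library lay above every olfactory bulb library. The difference from the mean of the other regions was 1.04 ± 0.014 (log2, SE) in the medulla and -0.66 ± 0.018 in the olfactory bulb. Between these extremes came the pons at 445 CPM, thalamus at 306, motor cortex at 292 and hypothalamus at 280, while visual cortex and cerebellum, both at 265 CPM, could not be ordered beyond their SDs of 15.0 and 26.7. From the caudate putamen (253 CPM) through choroid plexus, entorhinal cortex, posterior and anterior hippocampus and subventricular zone to the corpus callosum (219 CPM), each region lay within 1 SD of the next. Psmc1, an ATPase whose tail helps to open the core gate, followed the same order at its ends, with 231 to 349 CPM in the medulla and 87.6 to 119 CPM in the olfactory bulb, and these ranges did not overlap. Its differences were 0.96 ± 0.014 and -0.59 ± 0.016.

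Psme4, the cap that favours acetylated histones, had the reverse order. It was highest in the olfactory bulb, from 43.9 to 76.0 CPM with a median of 53.7 (mean 54.0 ± 5.87, SD, n = 58), and lowest in the pons, from 11.7 to 24.8 CPM with a median of 17.5 (mean 17.6 ± 2.91, n = 51). The 2 ranges did not overlap, and the differences from the other regions were 1.15 ± 0.020 and -0.59 ± 0.026. The medulla at 18.9 ± 2.67 CPM and the pons did not differ beyond their SDs. Psme1, the alpha subunit of the interferon-inducible cap, was highest in the hypothalamus, from 50.7 to 80.4 CPM with a median of 63.5 (mean 64.0 ± 5.70, n = 55), and lowest in the cerebellum, from 14.4 to 31.9 CPM with a median of 21.2 (mean 21.6 ± 3.80, n = 58). These ranges did not overlap either, with differences of 0.93 ± 0.027 and -0.76 ± 0.033. Psmb11 was found mainly in the olfactory bulb, at 1.91 ± 0.98 CPM (n = 58), with mean levels of at most 0.241 CPM in the other 14 regions.

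The assembly chaperones had their own high points. Psmd10, which also binds the ATPase ring as the oncoprotein gankyrin, was higher in the medulla by 0.62 and lower in the olfactory bulb (-0.61). Psmg1, which pairs with Psmg2 to seat the alpha subunits, was higher in the hypothalamus by 0.59, and Psmg4, the partner of Psmg3, in the caudate putamen by 0.51. Psme1 was also called higher in the entorhinal cortex, by 0.51, and fell short of the threshold there without the 3 libraries that stood high (0.44).

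Change with age was the slope on age in months beside sex, fitted region by region, and is given as the log2 change over the 25 months from 3 to 28 with its 95% interval (normal, from its SE). Of the 652 pairs, 13 rose (1.99%) and 19 fell (2.91%), against 6.37% and 5.10% of 214677 pairs over all genes, so the share called lay below that of all genes in both directions. With library size alone in place of TMM factors 23 pairs rose and 12 fell. Among mice 16 to 56, which leaves out the 12- and 26-month mice (numbered 1 to 15) and those of 28 months (57 to 59), 6 rose and 11 fell, and in males alone 9 rose and 11 fell. The core members held within a narrow band. All 465 of their pairs changed by less than 0.25 on the log2 scale, the largest change being -0.21, and every 95% interval lay within 0.5 of 0. The median half-width of those intervals was 0.085 and the largest 0.22. Of the core pairs 4 rose and 14 fell. Of the 60 activator pairs 8 rose and none fell in edgeR's test (2 lay below 0 at an unadjusted p under 0.05), and DESeq2 called 10 rises and no fall.

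**Figure D2:**
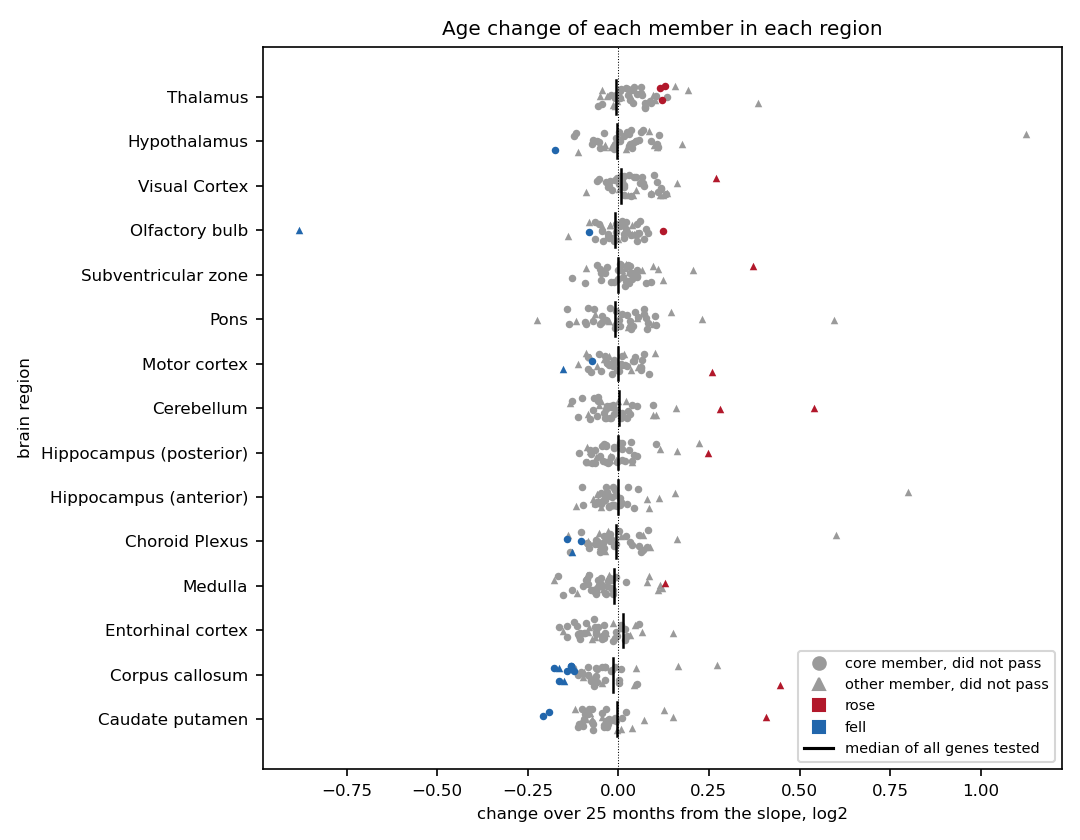
Fitted log2 change over 25 months (horizontal axis) of each member in each region (vertical axis), 1 point per member, with core members as circles, other members as triangles, called rises in red, called falls in blue and a bar at the median of all genes tested. The circles lie within 0.25 of 0 in every region, and the blue points gather in the corpus callosum.

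By region the calls were few and uneven. In the caudate putamen 1 member rose (7.68% of all genes) and 2 fell (6.26%), in the cerebellum 2 rose (10.5%), in the choroid plexus 3 fell (9.28%), and in the corpus callosum 1 rose (9.65%) and 9 fell (8.95%). In the posterior hippocampus 1 rose (4.53%), in the hypothalamus 1 fell (3.21%), in the medulla 1 rose (6.56%), and in the motor cortex 1 rose (8.39%) and 2 fell (8.89%). In the olfactory bulb 1 rose (7.78%) and 2 fell (9.01%), in the subventricular zone 1 rose (4.85%), in the thalamus 3 rose (2.78%) and in the visual cortex 1 rose (5.81%). No member was called for the slope in the entorhinal cortex (0.186% of all genes rose and 0.0413% fell), the anterior hippocampus (6.89% and 4.52%) or the pons (4.62% and 1.07%). There edgeR gave an unadjusted p under 0.05 for 1 of 43, 5 of 44 and 3 of 44 members, and DESeq2 called none. With 43 or 44 members tested per region, the corpus callosum, with 9 of 43, was the only region whose falling share stood more than 2 times above that of all genes, and the thalamus, with 3 of 44, the only one where the rising share did.

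In the alpha ring, which gates the entry to the barrel, 1 of 105 pairs rose and 2 fell. Psma3 rose in the olfactory bulb by 0.12 [0.04, 0.21] (adjusted p = 0.0312). At 3 months it ran from 205 to 233 CPM with a median of 222 (n = 10), and at 28 months the 3 values were 219, 229 and 263 CPM, so that the ages overlapped. Its slope in the olfactory bulb was above the mean of the other regions (adjusted p = 0.0358), but its slopes did not pass the test over all 15 regions (adjusted p = 0.345), and the rise was not called in males alone (adjusted p = 0.257). Psma5 fell in the choroid plexus by 0.10 [-0.18, -0.03] (adjusted p = 0.0441), a call that was lost without mouse 14, 15, 33, 35 or 53 (adjusted p of up to 0.123), and Psma1 fell in the corpus callosum. Psma1 was also 1 of only 2 members whose slope differed between regions in the joint fit (adjusted p = 0.0409), from -0.13 over 25 months in the medulla to 0.07 in the olfactory bulb. The slope call for Psma1 was lost without mouse 58, of 28 months (adjusted p = 0.098), in males alone (0.218), and with RLE factors (0.0545) or library size alone (0.0501). Psma2, Psma4, Psma6 and Psma7 were called for the slope in no region, with mean changes of -0.01, -0.06, -0.02 and 0.03. Against 3 months, Psma4 was lower in the motor cortex at 12, 21 and 26 months (edgeR, adjusted p = 0.0241, 0.0446 and 0.0246). Psma4, Psma6 and Psma7 were lower in the medulla at 28 months (adjusted p = 0.037, 0.0254 and 0.0225).

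Of the beta ring, 1 of 105 pairs rose and 2 fell, and the movers were catalytic. Psmb5 carries the chymotrypsin-like site. In the caudate putamen it ran from 109 to 134 CPM with a median of 124 at 3 months (n = 9), and stood at 94.0, 103 and 104 CPM in the 3 mice of 28 months, all below the lowest young value. It fell by 0.21 [-0.29, -0.13] (adjusted p = 0.000191). Of the neuron markers 2 of 7 fell in the caudate putamen too (median change -0.15), and 2 of 7 in the hypothalamus (-0.15), and their part in the falls was not tested. In the hypothalamus it ran from 110 to 127 CPM at 3 months (n = 9) and stood at 95.2 and 97.6 CPM in the 2 mice of 28 months, again without overlap. There it fell by 0.17 [-0.28, -0.07] (adjusted p = 0.0327), while the 4 mice of 26 months, at 107, 113, 115 and 125 CPM, lay among the young. The hypothalamus call was lost with library size alone, in males alone, among mice 16 to 56 and at 3 to 21 months alone (adjusted p of up to 0.297). The slope of Psmb5 was below 0 in 14 of 15 regions, with a mean change of -0.08. Psmb6, which carries the caspase-like site, rose in the thalamus, where the change of Psmb5 was -0.01. That call for Psmb6 was kept in 6 of the 12 runs that left out 1 mouse. The slope of Psmb6 was above 0 in 10 of 15 regions, with a mean of 0.04. The difference between Psmb5 and Psmb6 was not tested. Psmb7, with the trypsin-like site, was called for the slope in no region, its changes lying between -0.14 and 0.08. The structural subunits Psmb1, Psmb2, Psmb3 and Psmb4 were not called either, and their changes ran from -0.14 (Psmb4, pons) to 0.14 (Psmb2, thalamus).

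The ATPase ring, which unfolds substrates, had 1 rise (Psmc4 in the thalamus) and 2 falls (Psmc3 in the olfactory bulb and Psmc6 in the corpus callosum) among 90 pairs. Psmc3 fell by 0.08 [-0.13, -0.03] (adjusted p = 0.0295), one of the smallest called changes, and was not called without mouse 59 (adjusted p = 0.0554), among mice 16 to 56 or at 3 to 21 months alone (up to 0.290). Psmc6 fell in the corpus callosum by 0.13 [-0.22, -0.04] (adjusted p = 0.0453), and was not called without mouse 14, 15, 36, 53, 55, 56 or 59 (adjusted p of up to 0.068). The slope of Psmc6 was below 0 in 14 of 15 regions, with a mean change of -0.06. Psmc1, Psmc2 and Psmc5 were called for the slope in no region, their changes lying between -0.07 and 0.11.

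The 11 other regulatory subunits gave 1 rise and 8 falls among 165 pairs, and the falls belonged to 5 genes. Psmd11, a lid subunit that holds the lid and base together, fell in the corpus callosum, the choroid plexus and the motor cortex. In the choroid plexus it ran from 125 to 152 CPM with a median of 134 at 3 months (n = 10) and stood at 123, 127 and 135 CPM at 28 months, so the ages overlapped. The change there was -0.14 [-0.21, -0.08] (adjusted p = 0.00201), and in the motor cortex -0.07 [-0.12, -0.02] (adjusted p = 0.0475), where leaving out 9 of the 12 mice tried, 1 at a time, ended the call (adjusted p of up to 0.0832). The choroid plexus libraries were not epithelium alone. Their summed neuron markers had a median of 6569 CPM, between those of the hypothalamus (4254) and motor cortex (11290). Summed oligodendrocyte markers had a median of 12750 CPM, and summed epithelium markers ran from 567.1 to 12140 CPM. Among these libraries 3 of 7 neuron markers fell with age (median change -0.23) and 3 of 6 oligodendrocyte markers rose (0.69). Of the microglia markers 5 of 6 rose (0.58), and none of the 5 choroid plexus epithelium markers was called. Their part in the 3 falls of members in the choroid plexus was not tested. Psmd6, the lid subunit next to Psmd11 in the horseshoe of the lid, fell in the caudate putamen and the corpus callosum. In the caudate putamen it ran from 133 to 155 CPM with a median of 148 at 3 months (n = 9) and stood at 118, 121 and 131 CPM at 28 months, all below the young range. It fell there by 0.19 [-0.26, -0.12] (adjusted p = 0.000216), more steeply than in the other regions (adjusted p = 0.0495). Psmd3, Psmd4, Psmd8, Psmd12 and Psmd13 were called for the slope in no region.

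**Figure D3:**
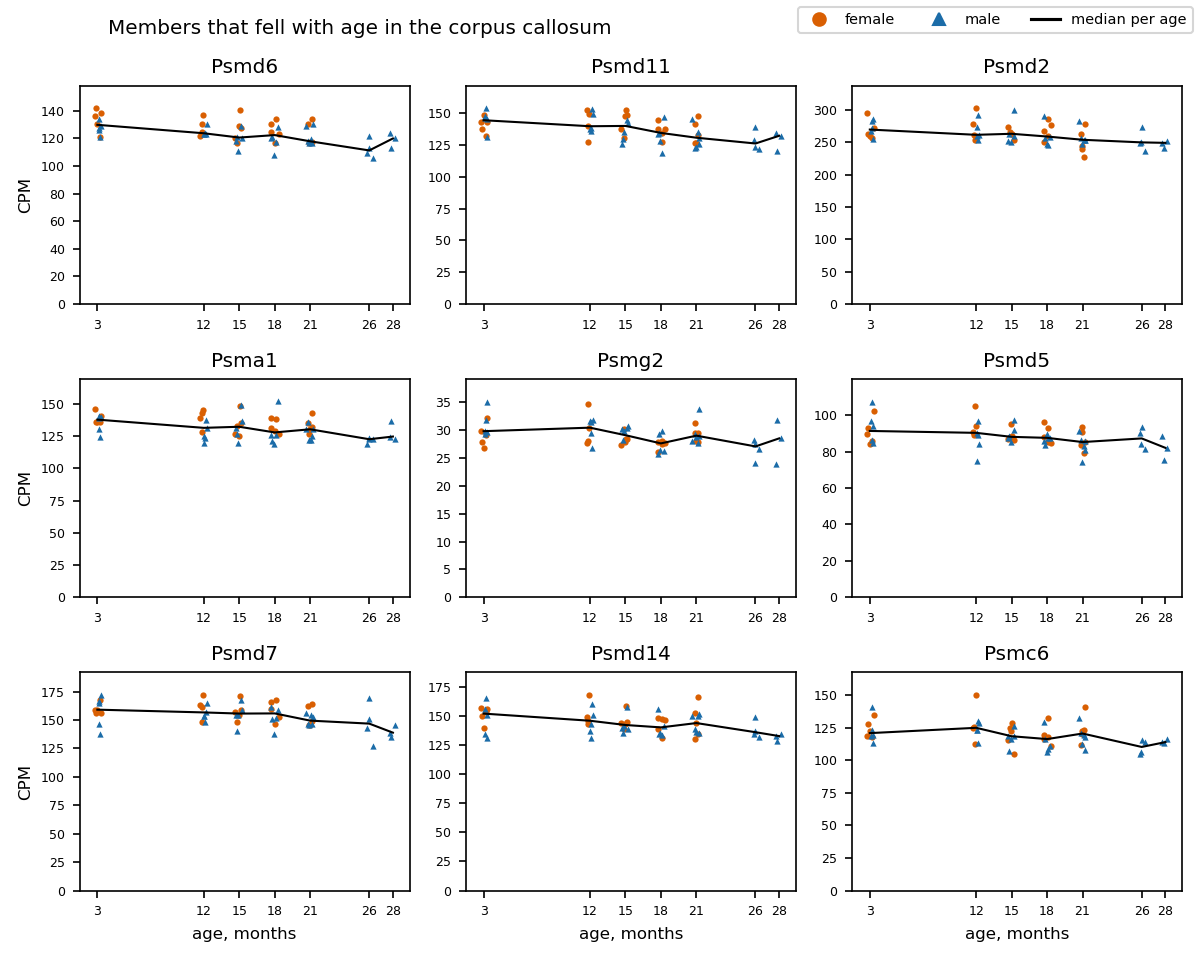
Levels (CPM, axes from 0) of the 9 members that fell with age in the corpus callosum, by age in months, with 1 point per mouse (circles female, triangles male) and a line through the median of each age. The median at 28 months lies below that at 3 months in all 9 genes, and the ages overlap in most of them.

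The corpus callosum, the white matter tract between the hemispheres, was the region with the most falls: Psmd6, Psmd11, Psmd2, Psma1, Psmg2, Psmd5, Psmd7, Psmd14 and Psmc6. Its libraries were not white matter alone. They held the caudate putamen genes Drd1 and Drd2 at medians of 107.5 and 349 CPM, against 130.5 and 574.1 CPM in the caudate putamen. Their summed neuron markers had a median of 5116 CPM, against 4710 CPM in the caudate putamen. The median change over the 31 core members was -0.06, against -0.01 over all genes. Of the 9 falls, 4 were called in males alone, 2 at 3 to 21 months alone and 2 among mice 16 to 56. Psmd6 ran from 121 to 142 CPM with a median of 130 at 3 months (n = 10), stood at 106, 110, 113 and 121 CPM at 26 months, and at 113, 120 and 124 CPM at 28 months. Most of the oldest mice lay below the lowest young mouse. It fell by 0.16 [-0.23, -0.09] (adjusted p = 0.000509). Psmd11 ran from 131 to 154 CPM with a median of 144 at 3 months (n = 10), and stood at 120, 132 and 135 CPM at 28 months. It fell by 0.18 [-0.26, -0.10] (adjusted p = 0.000953), with 2 of the 3 oldest inside the young range.

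Psmd2, the base scaffold that docks ubiquitin shuttles, ran from 255 to 296 CPM with a median of 270 at 3 months (n = 10) and stood at 242, 249 and 252 CPM at 28 months, all below the young range. It fell by 0.14 [-0.22, -0.07] (adjusted p = 0.00489). Psma1 ran from 125 to 146 CPM with a median of 138 at 3 months, stood at 119, 122, 123 and 124 CPM at 26 months, and at 123, 125 and 136 CPM at 28 months. It fell by 0.12 [-0.19, -0.05] (adjusted p = 0.0137). The chaperone Psmg2 fell by 0.16 [-0.26, -0.07] (adjusted p = 0.0148), with 26.8 to 35.0 CPM at 3 months and 23.9, 28.5 and 31.8 CPM at 28 months, which overlap. Psmd14, the enzyme that removes ubiquitin chains, and its partner Psmd7 fell by 0.13 each. In the contrast of the corpus callosum with the mean of the other regions, the slopes of these 9 members were not called different. Psma1 alone among them passed the joint test over all 15 regions (edgeR, adjusted p = 0.0409). The summed neuron markers ran from 3790 to 6578 CPM at 3 months and from 4945 to 5711 CPM at 28 months, and none of the 7 rose or fell. Of the oligodendrocyte markers 2 of 6 rose with age, the summed level running from 17020 to 24240 CPM at 3 months and from 22280 to 30530 CPM at 28 months, and 4 of 5 astrocyte and 5 of 6 microglia markers rose, with median changes of 0.21 and 0.52. Summed choroid plexus epithelium markers in these libraries ran from 6.71 to 15310 CPM at 3 months (median 441), from 1040 to 14410 CPM at 26 months (median 5511) and from 10.1 to 10290 CPM at 28 months (median 4293). The part of these cells, or of caudate putamen tissue, in the falls was not tested.

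In the thalamus, where 32 of 44 members had slopes above 0 and all the calls were rises, Psmd1, Psmc4 and Psmb6 changed by 0.12 [0.05, 0.19], 0.13 [0.05, 0.20] and 0.12 [0.04, 0.19] (adjusted p = 0.0301, 0.0376 and 0.0479). None of the 3 was called without mouse 53, a female of 3 months, and 1 was without mouse 14 (26 months), without mouse 59 (28 months), or without the libraries that stand apart. All 3 were lost in males alone, among mice 16 to 56 and at 3 to 21 months alone (adjusted p of up to 0.245, 0.236 and 0.328). Psmd1 ran from 244 to 276 CPM with a median of 253 at 3 months (n = 10) and stood at 273, 282 and 297 CPM at 28 months. The lowest of the oldest mice lay inside the young range and the other two above it. The 3 values of Psmc4 at 28 months were 146, 155 and 156 CPM against 124 to 151 CPM at 3 months, and those of Psmb6 were 165, 170.2 and 170.2 CPM against 143 to 173 CPM. Of the neuron markers none was called in this region, with summed levels of 6523 to 8314 CPM at 3 months and 6931 to 8355 CPM at 28 months.

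**Figure D4:**
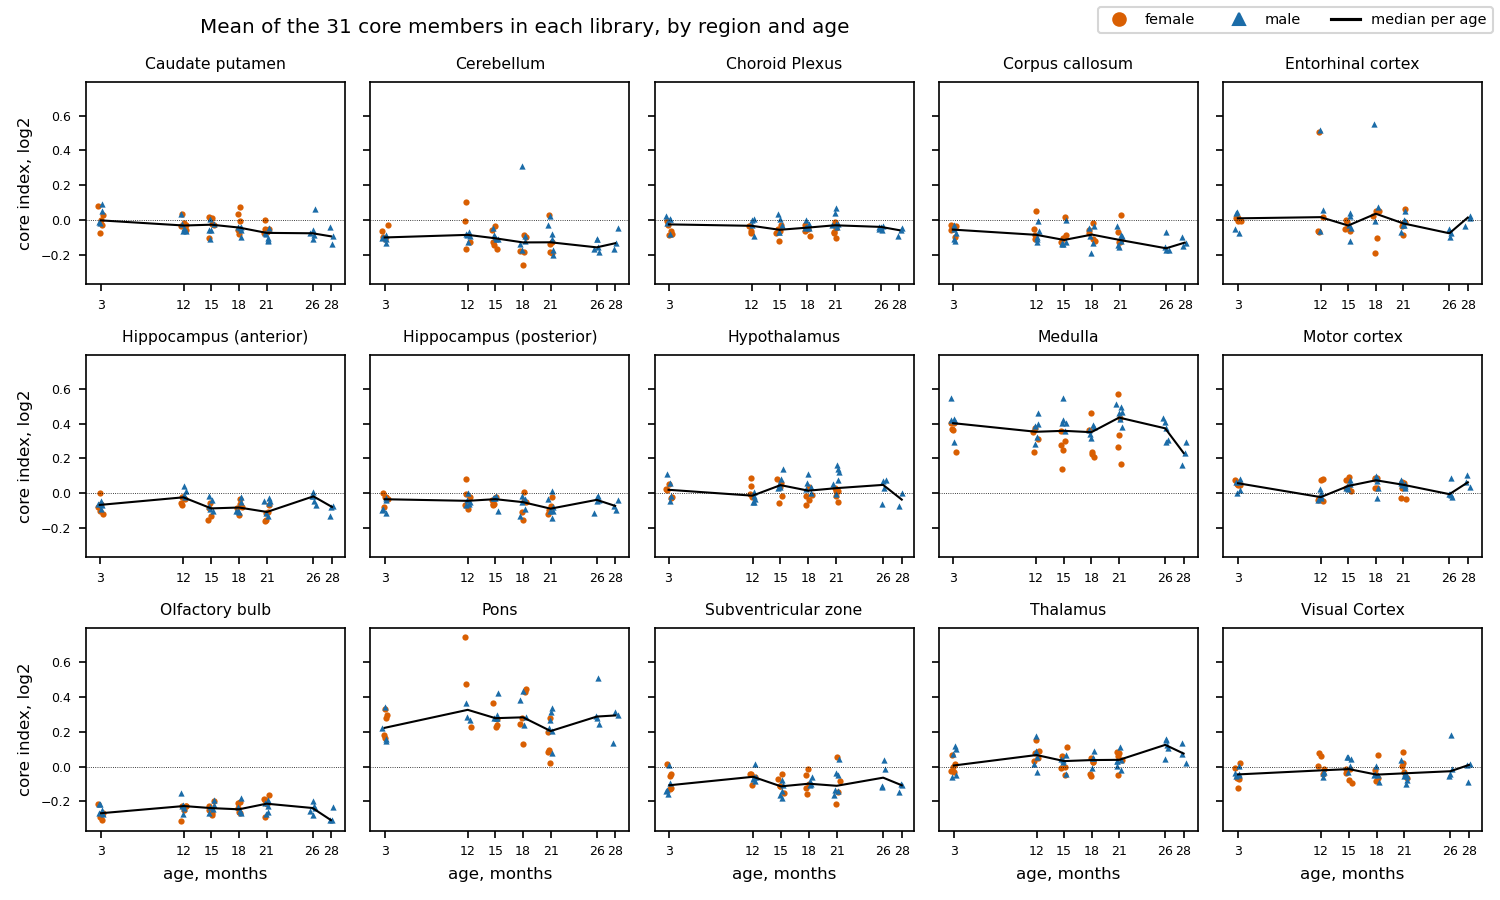
Mean log2 level of the 31 core members in each library relative to all libraries, by age in months, with 1 panel per region, 1 point per library (circles female, triangles male) and a line through the median of each age. The medians of the medulla and pons lie above those of the other regions at every age, those of the olfactory bulb are lowest, and the medulla is lower at 28 months than at 26.

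Assembly chaperones, which build the rings and leave before the complex works, gave no rise and 4 falls among 105 pairs in edgeR's test. At an unadjusted p under 0.05, 1 pair lay above 0 and 10 below, and DESeq2 called no rise and 3 falls. Psmd5, which holds part of the ATPase ring during assembly, fell in the corpus callosum by 0.15 [-0.24, -0.06] and in the choroid plexus by 0.13 [-0.22, -0.04] (adjusted p = 0.0156 and 0.0361). In the choroid plexus it ran from 99.7 to 122 CPM at 3 months (n = 10) and stood at 98.3, 100.2 and 107 CPM at 28 months. The choroid plexus call was lost without mouse 14, 33 or 53 (adjusted p of up to 0.0741). Psmg2 fell in the motor cortex as well, by 0.15 [-0.25, -0.05] (adjusted p = 0.0330), from 29.4 to 34.2 CPM at 3 months to 26.6, 27.5 and 28.2 CPM at 28 months, with no overlap, but was not called without mouse 14 (adjusted p = 0.0619). Psmd9, Psmd10, Psmg1, Psmg3 and Psmg4 were called for the slope in no region.

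The one member with a broad change was Psme1. It rose in 7 of the 15 regions, its slope was above 0 in 13, and its mean change was 0.20. The calls in the cerebellum and motor cortex held under every alternative run. Among mice 16 to 56 the other 5 were lost, those of the corpus callosum, posterior hippocampus, subventricular zone and visual cortex at 3 to 21 months alone as well. The slopes differed between regions (adjusted p = 0.00033), from -0.04 over 25 months in the thalamus to 0.54 in the cerebellum. Only 2 of the 45 members, Psme1 and Psma1, had slopes that differed between regions, against 19.0% of 15069 genes. Next came Psmd6 (adjusted p = 0.0575), from -0.19 in the caudate putamen to 0.03 in the hypothalamus, Psmb6 (0.150), from -0.10 in the entorhinal cortex to 0.13 in the visual cortex, and Psmc4 (0.157), from -0.08 in the medulla to 0.13 in the thalamus. Without the 3 entorhinal cortex libraries named above, 3 members were called: Psme1, Psma1 (0.00745) and Psmd6 (0.0304).

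**Figure D5:**
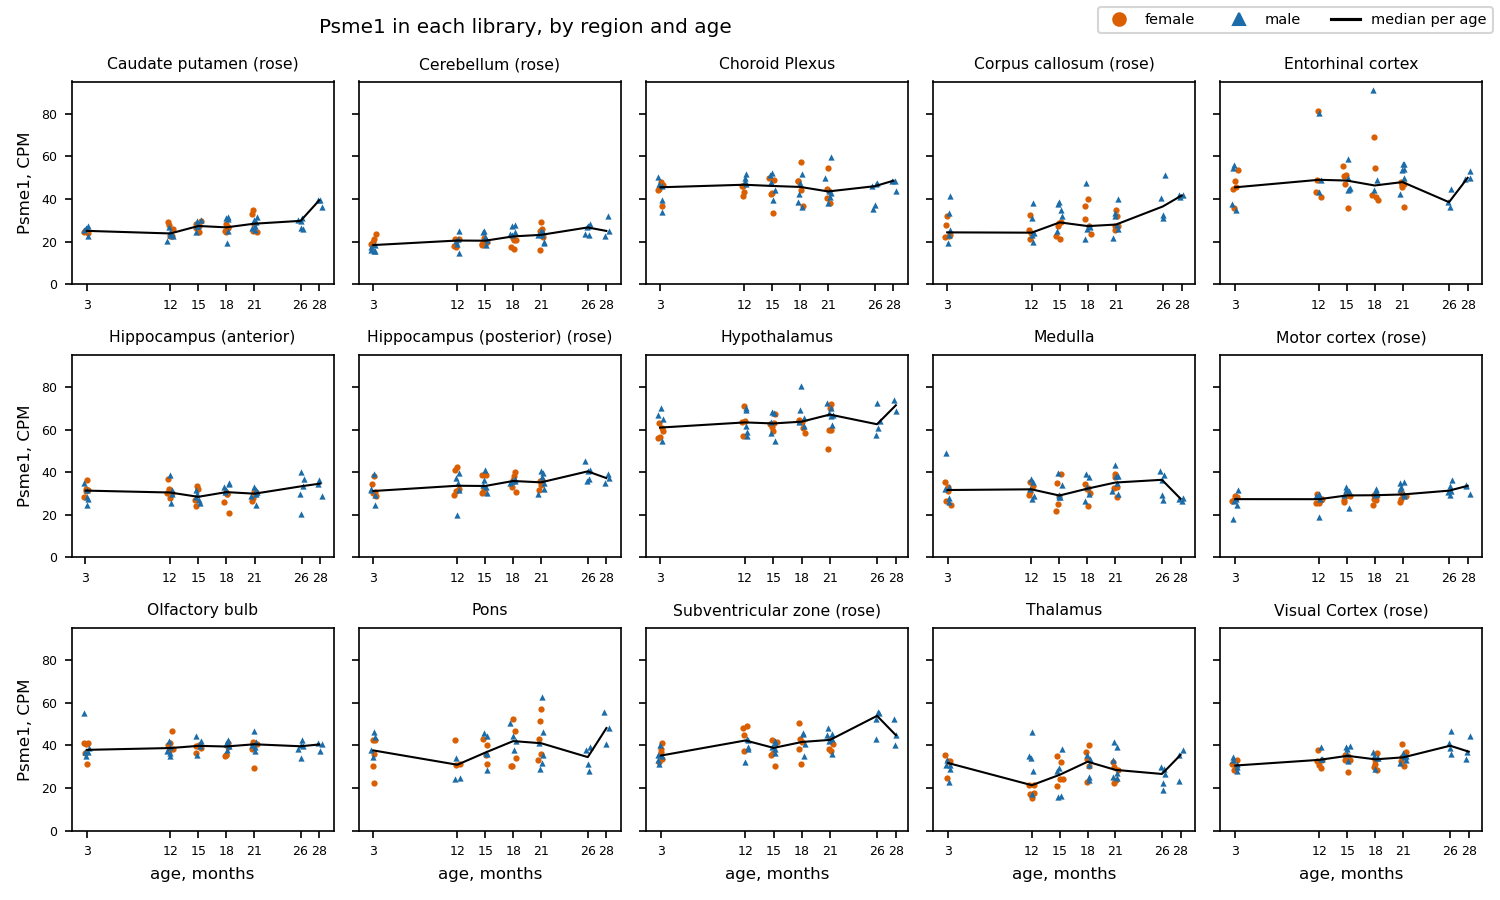
Psme1 levels (CPM) by age in months in the 15 regions, with 1 point per library (circles female, triangles male), a line through the median of each age and the 7 regions with a called rise marked in their titles. The cerebellum starts lowest, near 18.3 CPM, and the 3 mice of 28 months in the caudate putamen lie above every younger mouse.

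In the cerebellum Psme1 ran from 15.6 to 23.5 CPM with a median of 18.3 at 3 months (n = 10), from 16.2 to 29.0 CPM with a median of 23.1 at 21 months (n = 11), and stood at 22.8, 25.0 and 31.9 CPM at 28 months. The ages overlapped at their edges. It rose by 0.54 [0.38, 0.70], which is 1.45-fold (adjusted p = 1e-06). In the caudate putamen it ran from 22.4 to 27.2 CPM with a median of 25.0 at 3 months (n = 9), stood between 26.0 and 31.2 CPM at 26 months (n = 5), and at 36.0, 39.3 and 39.4 CPM at 28 months, above every younger mouse. It rose by 0.41 [0.24, 0.57] (adjusted p = 0.000389). In the corpus callosum it ran from 19.1 to 41.5 CPM with a median of 24.3 at 3 months (n = 10) and stood at 41.0, 41.6 and 42.0 CPM at 28 months. It rose there by 0.45 [0.17, 0.72] (adjusted p = 0.0181), more steeply than in the other regions (adjusted p = 0.0489). The rise in the corpus callosum was not called in males alone, at 3 to 21 months alone or among mice 16 to 56 (adjusted p of up to 0.468).

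In the subventricular zone Psme1 rose by 0.37 [0.22, 0.53] (adjusted p = 0.000935), with 31.3 to 41.1 CPM at 3 months, 43.2, 52.5, 55.2 and 55.7 CPM at 26 months and 40.0, 44.8 and 52.4 CPM at 28 months. The oldest mice lay in or above the upper part of the young range. Smaller rises were those of the visual cortex, 0.27 [0.14, 0.39] (adjusted p = 0.00302), the motor cortex, 0.26 [0.14, 0.37] (adjusted p = 0.000931), and the posterior hippocampus, 0.25 [0.09, 0.41] (adjusted p = 0.0456), where leaving out 8 of the 12 mice tried, 1 at a time, ended the call (adjusted p of up to 0.0729). Psme2, the partner of Psme1 in the heptameric cap, had a called slope in the cerebellum alone, a rise of 0.28 [0.12, 0.44] (adjusted p = 0.00843). There Psme2 ran from 17.5 to 23.2 CPM at 3 months and stood at 22.2, 23.4 and 27.3 CPM at 28 months. Its slope was above 0 in 14 of 15 regions, with a mean change of 0.15, and did not pass the test of a difference between regions (adjusted p = 0.516). Psme3, the nuclear cap, and Psme4 were called for the slope in no region, their mean changes being -0.01 and -0.03.

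Microglia markers also rose with age, but not in the same regions as Psme1 throughout. In the cerebellum 5 of 6 rose, with a median change of 0.92, and in the corpus callosum 5 of 6 rose, with a median of 0.52. Psme1 also rose in the subventricular zone, posterior hippocampus and caudate putamen, where 6, 5 and 4 of 6 rose (medians 0.54, 0.48 and 0.39). In the thalamus, where the Psme1 slope was below 0, 5 of 6 rose as well, with a median of 0.51. The same 5 of 6 count was found in the choroid plexus, anterior hippocampus, hypothalamus, medulla and pons, where Psme1 was not called. Of the 2 cortical regions where Psme1 rose, the motor cortex had 1 of 6 rising and 1 falling (median 0.03), and the visual cortex 2 rising and 1 falling (median -0.04). Over the 15 regions 59 of 90 microglia pairs rose. Their part in the rise of Psme1 was not tested.

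Psmf1, the proline-rich inhibitor that binds the core particle, rose in the medulla by 0.13 [0.05, 0.21] (adjusted p = 0.0299). There it ran from 43.4 to 54.9 CPM with a median of 50.8 at 3 months (n = 10) and stood at 55.12, 55.14 and 59.3 CPM at 28 months, all above the young range. The call was lost among mice 16 to 56 (adjusted p = 0.0588). Its slope was above 0 in all 15 regions, with changes from 0.01 to 0.17 and a mean of 0.09, although 14 of the 15 did not pass the threshold. Of the tissue forms, Psmb11 fell in the olfactory bulb by 0.88 [-1.43, -0.33] (adjusted p = 0.0219), from 1.62 to 4.26 CPM with a median of 2.59 at 3 months (n = 10) to 0.819, 0.842 and 1.12 CPM at 28 months. These levels rest on few reads, and the change was not called without mouse 53 (adjusted p = 0.0509) or in males alone (0.234). Psma8 was tested in 6 regions and called in none for the slope.

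Set against 3 months with age as a factor, few members were called up to 18 months and more from 21 months on, as was the case for all genes. Of the 652 pairs, 1 was higher (Psmd12 in the thalamus) and 1 lower (Psma4 in the motor cortex) at 12 months (0.835% and 0.927% of all pairs). At 15 months these were Psmc4 and Psmg2 in the motor cortex (0.734% and 0.551%), and at 18 months Psme1 in the cerebellum and Psmb5 in the caudate putamen (1.75% and 1.11%). They are named here after their values were seen. At 21 months 6 were higher and 8 lower (3.98% and 3.01%), at 26 months 10 and 7 (2.75% and 1.57%), and at 28 months 8 and 21 (3.69% and 2.65%). The 6 comparisons share the libraries of 3 months. Over the 6 ages 66 such differences were called, a pair counting once at each age, and 44 were without mouse 57, 42 without mouse 58 and 38 in males alone. Psme1 was among those higher from 18 months on in the cerebellum.

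Of the 21 pairs lower at 28 months, 14 were in the medulla, where 14 of 44 members and 11.8% of all genes were lower. The median difference was -0.16 over the members and -0.03 over all genes, and 41 of the 44 lay below 0. The count was 7 without mouse 57, 1 without mouse 58 and 10 without mouse 59, and 8 with library size alone, while 40 or 41 members stayed below 0 without any one of these mice. Psmd11 ran from 138 to 186 CPM with a median of 166 at 3 months (n = 10), stood at 148, 154, 159, 165 and 166 CPM at 26 months, and at 113, 138 and 139 CPM at 28 months. The oldest mice thus lay below all mice of 26 months, with a difference of -0.40 ± 0.082 from 3 months (log2, SE; adjusted p = 0.000392). Psmb5 stood at 119, 120 and 123 CPM at 28 months against 127 to 169 CPM at 3 months, without overlap (-0.31 ± 0.092, adjusted p = 0.00996), and Psma1 at 117, 129 and 141 CPM against 131 to 173 CPM (-0.28 ± 0.065, adjusted p = 0.00167). No member differed from 3 months in the medulla at 26 months (3 of 44 at an unadjusted p under 0.05, edgeR). These values rest on 3 mice, whose summed neuron markers (9469 to 10410 CPM) and oligodendrocyte markers (21980 to 24540 CPM) stood against 10060 to 12370 and 21050 to 31090 CPM at 3 months, the former reaching below the young range and the latter inside it, and their part in the difference was not tested.

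Sex was compared at the ages that both have, 3 to 21 months. Over the 15 regions 20 pairs were higher in males and none lower, against 1.38% and 1.63% of all pairs (edgeR). At an unadjusted p under 0.05, 61 of 649 pairs were higher in males and 22 lower. Of the 20 pairs called at the adjusted threshold, 17 were in the medulla, 17 of 44 members tested beside 10.2% of all genes, and 3 in the hypothalamus (3.25% of all genes). A further 14.3% of all genes were called lower in males in the medulla, and 2.18% in the hypothalamus. Differences between the sexes in the medulla thus extended far beyond the members. In the medulla Psmd11 ran from 122 to 180 CPM with a median of 145 in 24 females and from 137 to 192 CPM with a median of 166 in 26 males, overlapping over most of the range. It was higher in males by 0.15 ± 0.033 (log2, SE; adjusted p = 0.000667). Psmd1 ran from 310 to 436 CPM (median 360) in females and from 350 to 464 CPM (median 393) in males, a difference of 0.14 ± 0.032 (adjusted p = 0.0012). Psme3 ran from 117 to 191 CPM (median 154) in females and from 155 to 197 CPM (median 168) in males, a difference of 0.16 ± 0.040 (adjusted p = 0.00202), the male range beginning near the female median and reaching above the female maximum. Among the mice of 12 months alone (9 medulla libraries) none of the 17 was called, although 16 of them lay above 0, with a median difference of 0.10 against 0.11 over all ages. In the labels the 12-month mice of both sexes have interleaved numbers from 1 to 15, whereas at the other ages males are numbered 16 to 36 and females 37 to 56. In the hypothalamus the members were Psmc3, Psma7 and Psmb1, higher by 0.17 ± 0.041, 0.10 ± 0.029 and 0.09 ± 0.024. None of the 3 was called with depth covariates or at 12 months alone, where Psmc3 was -0.08, and Psma7 was not called among mice 16 to 56. Of the markers there, 2 of 6 of microglia and 1 of 5 of astrocytes were lower in males, 1 of 7 of neurons was higher, and the oligodendrocyte median was -0.29 with none called. Their part in the differences was not tested.

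Neuron markers in the medulla had a median difference of 0.09 between males and females, 1 of 7 being called higher, with summed levels of 7844 to 11100 CPM in females and 9381 to 12450 CPM in males. Their part in the difference was not tested. No member's slope over age differed between the sexes in any region (edgeR's quasi-likelihood test; 31 of 649 pairs at an unadjusted p under 0.05), against 0.0699% of all pairs.

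The core members moved together between libraries of the same region. Within-region residuals of log2 CPM after age and sex had a median correlation of 0.682 with the mean of the other core members over all libraries, from 0.204 (Psmd2) to 0.767 (Psmd7). Over all 15069 genes the median was -0.0732, with quartiles of -0.199 and 0.0996 and a maximum of 0.821, above every core member. Removing library depth left the core at 0.667. The 3 entorhinal cortex libraries that stood high were kept in. These points share mice and libraries, so the values are a description. Low values were those of Psmd2, Psmd3 (0.243), Psmb7 (0.301) and Psmd1 (0.377). Outside the core, Psme1 stood at 0.0553, Psme2 at 0.110 and Psme4 at -0.178.

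Among other genes of the pathway the immunoproteasome had the most rises. Read against 6.37% rising and 5.10% falling over all genes, the other lists lay near or below those shares. Of 165 pairs of the proteasome's partners (11 of 14 listed genes in the table), 2 rose (1.21%) and 5 fell (3.03%). Sem1, a small lid subunit, and Akirin2, which carries proteasomes into the nucleus, fell in the corpus callosum. Of 60 pairs of the regulators Nfe2l1, Nfe2l2, Ddi2 and Ngly1, 4 rose (6.67%) and none fell in edgeR's test (4 lay below 0 at an unadjusted p under 0.05; DESeq2 called 3 rises and no fall), and Nfe2l1 was called in no region. Of 240 pairs of ubiquitin genes and shuttle factors 12 rose (5.00%) and 11 fell (4.58%). Of those falls 9 belonged to Uba6, an enzyme that activates ubiquitin and the related modifier Fat10, and 5 of the rises to Sqstm1, an autophagy receptor for ubiquitin-tagged cargo. The immunoproteasome, whose subunits replace the catalytic ones of the beta ring, rose in 26 of 45 pairs (57.8%): Psmb8 in 13 regions with a mean change of 1.15, Psmb9 in 12 with a mean of 1.08, and Psmb10 in the cerebellum. In the cerebellum Psmb8 ran from 3.03 to 7.78 CPM with a median of 4.22 at 3 months (n = 10). At 28 months it stood at 9.82, 11.1 and 13.4 CPM, all above the young range. Psmb5, the subunit it replaces, was not called there for the slope (edgeR, change -0.10, unadjusted p = 0.0545, adjusted p = 0.169). Against 3 months, cerebellar Psmb5 was lower at 26 months (-0.22 ± 0.064, log2, SE, adjusted p = 0.0207) and was not called at 28 months.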

How the data were processed

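The data were read counts per gene for RNA-seq libraries of 15 brain regions of 59 mice, in 1 table deposited by the authors. Per the labels' protocols, RNA was column-purified and made into unstranded full-length cDNA libraries. The submitters' processing notes name Trim Galore 0.3.7, STAR 2.5.3a, DESeq2 and GRCm38, and the counter is not given in the sources used here. The deposited counts are whole numbers and were not normalized. Every column matched 1 sample's labels (columns of other samples: 0).

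Region, sex, age and mouse came from the labels. Each region was fitted over all genes with edgeR 4.0.16 (limma 3.58.1, R 4.3.3): TMM factors, the expression filter on age and sex groups, and the quasi-likelihood test, 2-sided, with Benjamini-Hochberg adjustment over all genes tested in that region at 0.05. Age entered as months beside sex, or as a factor against 3 months; sex was tested at 3 to 21 months. Intervals are normal 95% intervals from the SE. A joint fit of all libraries tested slopes by region on 14 degrees of freedom, and levels against the mean of the other regions. Reported p-values for regions treat libraries of 1 mouse as independent, except where the mouse number was a block. That pairing comes from the labels, which give the same mouse number to libraries of 1 animal. Deviations from group means correlated between regions of the same mouse by a median of 0.0321 (5687 pairs; mouse medians from -0.00536 to 0.0975, none of the 59 over 0.1) against 0.00509 between mice of 1 age and sex (22735 pairs).

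Levels per kilobase divide CPM by the union of annotated exons. Covariation used log2 CPM with a prior count of 2, and the core index is the mean log2 of CPM plus 0.5 over the core members. Totals of 481444 to 26756735 reads per library set the precision of counting. The reads had no molecular identifiers, so copies made by amplification could not be told from separate molecules. Promoter windows came from RefSeq; the searches for the interferon-type and heat shock elements and the omission of 3 entorhinal cortex libraries were chosen after seeing the data.

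The members and lists were chosen with earlier results of these data known. Full statistics went to the 5 members called in the most regions in each direction for age, the 5 with the smallest adjusted p for slopes by region, the 5 with the widest range of level over regions, the 3 with the smallest adjusted p for sex, and the 5 with the smallest adjusted p in the region with the most calls in each direction. Alternatives were RLE factors, library size alone, no filter, DESeq2 1.42.0, depth covariates, subsets of mice, leaving out single mice, the mouse block and omission of libraries that stand apart. The tests were tested on simulated counts before use. Tables and plots used Python 3.11.15, numpy 2.4.6, pandas 2.3.3 and matplotlib 3.10.9.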

Additional observations from a re-analysis of the deposited data

Results flagged for a closer look

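Within groups of 4 to 10 libraries of 1 region and age, a library whose gap to its nearest neighbour took a large share of the group's range was listed by Dixon's criterion, which chance alone meets in about 1 of 20 groups. Of 87 groups of members described above, 5 were listed. In the thalamus Psmd1 had 1 low library at 12 months, at 237.5 CPM with the next at 263.4 CPM, and 1 high library at 18 months, at 302.3 CPM with the next at 278.7 CPM. Psmc4 had 1 low library there at 26 months, at 144.2 CPM with the next at 161.3 CPM, and Psmb6 1 at 15 months, at 143.6 CPM with the next at 154.8 CPM. In the corpus callosum 1 library of 15 months held Psmd2 at 300 CPM, above the next at 273.4 CPM.

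The mean log2 level of the 31 core members, relative to all libraries, had 5 such groups of 77, each with a high library. In the entorhinal cortex at 18 months 1 library stood at 0.5513 with the next at 0.07525, and in the cerebellum at 18 months 1 stood at 0.3116 with the next at -0.08367. At 26 months single libraries stood at -0.06825 in the corpus callosum, 0.08854 in the motor cortex and 0.1789 in the visual cortex, against -0.1542, -0.001917 and -0.01335 for the next.

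The slope over age differed between the 15 regions for Psme1 (adjusted p = 0.00033) and for Psma1 (adjusted p = 0.0409) by edgeR's test of the difference itself.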

How the results depend on the processing

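The 13 rises and 19 falls kept their direction in every alternative run, but 3 of the 13 and 5 of the 19 were called in all of them: Psme1 and Psme2 in the cerebellum and Psme1 in the motor cortex, and Psmd6 and Psmb5 in the caudate putamen, Psmd11 in the choroid plexus, and Psmd11 and Psmd6 in the corpus callosum. With library size alone 23 pairs rose and 12 fell, 11 and 12 of them shared with the TMM fit. Among mice 16 to 56 the counts were 6 and 11, in males alone 11 fell, and at 3 to 21 months alone 8 fell. DESeq2 called 19 rises and 21 falls. Leaving out 1 mouse at a time was done for 12 of the 59 mice, the highest-numbered of each sex and age, and gave 12 to 16 rises and 14 to 20 falls. Of the 66 differences from 3 months 38 were called in males alone, and 42 to 60 without 1 of the 3 mice of 28 months. The 20 sex differences became 16 to 22 on leaving out 1 of the 10 such mice of 3 to 21 months, and 0 in the 12-month mice alone. In the 12-month mice Psmc3 in the hypothalamus (-0.0847) and Psma7 in the medulla (-0.001043) changed sign, with adjusted p of 0.552 and 0.998. With the mouse number as a replicate block, 2 members had slopes that differed between regions and 37 level differences were called, all 37 shared, so the block changed none of these calls. In males alone 1 member's slope differed between regions, and leaving out 1 mouse of 28 months gave 2 to 3. A level difference of at least 1 in place of 0.5 left 7 of the 37, and leaving out 1 of the 3 mice of 28 months left 37. Depth limits Psmb11 and Psma8, and ages over 21 months rest on 3 to 5 males per region at most. The cause of these shifts was not tested.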
